A study of Mus musculus with 12 samples.

Results

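Broad stretches of H3K79me1 that carried little H3K79me2 were described in fibroblasts of mouse embryos, 4 days into reprogramming, with the cofactor AF10 present or deleted. The peaks of the 4 H3K79me1 lists were pooled on the autosomes (mm9), those within 1 kb of each other were joined, and joined domains of 10 kb or wider were kept if the pooled peaks of the 4 H3K79me2 lists covered less than 20% of their length. Of 87071 joined H3K79me1 domains of any width, 4905 were 10 kb or wider, and 525 of these (10.7%) met the limit on H3K79me2. They are called H3K79me2-poor domains, and the other 4380 broad domains H3K79me2-rich. The poor domains summed to 7361 kb.

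H3K79 is a residue on the globular face of histone H3, and DOT1L is the enzyme known to methylate it in mammals. DOT1L adds methyl groups one at a time, so the mono- and dimethylated forms, H3K79me1 and H3K79me2, are successive products of the same enzyme. Both mark transcribed genes, with the dimethylated form known to be densest near the start of active genes and the monomethylated form reaching further along the gene body. AF10, also named Mllt10, binds DOT1L and the histone H3 tail and is known to favour the higher methylation states.

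All groups were fibroblasts of the line labelled Conditional AF10, which carried OSKM (the reprogramming factors OCT4, SOX2, KLF4 and MYC) and rtTA, the doxycycline-dependent activator, and all received doxycycline at 2 µg/mL. Control cells had the genotype AF10 fl/fl, with both alleles floxed, and an empty adenovirus. Cre cells received an adenovirus with Cre recombinase under the CMV promoter, which is active in most cell types, and are labelled AF10 -/-. Virus was given 2 days before doxycycline, and the cells grew on DR4 feeder fibroblasts, whose chromatin may be in every library. Each mark had 2 control and 2 Cre libraries, replicates 1 and 2, and 4 libraries for RNA polymerase II were not analysed here. No label says that replicates were separate cultures, so the p-values measure the spread between these samples, which may be technical. No expression values were used, so the label of fibroblast was not checked against marker genes, and the lists hold no value that shows how completely AF10 was deleted.

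The lists differed widely in how much they called. On the autosomes, H3K79me1 peaks covered 117.8 and 53.4 Mb in controls 1 and 2, and 59.5 and 1.85 Mb in Cre 1 and 2. For H3K79me2 the range over 4 lists was 15.7 to 69.9 Mb. Read depth is unknown, so no counting interval was computed. Control 1 therefore weighed most in the choice of domains. It had the highest H3K79me1 cover of the 4 lists in 516 of the 525 domains, and rebuilding the domains without it left 30 that met the rule. Only 15 of the 525 had at least 50% of their length in those 30. Without control 2, 205 domains met the rule and 166 of the 525 (31.6%) were found again. Without Cre 1, in contrast, 404 (77.0%) were found again, and without Cre 2, 523. Both control lists thus weighed more in the choice than the Cre lists, so H3K79me1 cover higher in control than after Cre is partly built in.

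The H3K79me2-poor domains were narrower than the other broad domains and more sparsely filled. Their width ranged from 10004 to 49720 bp with a median of 12704 bp, against a median of 17063 bp in H3K79me2-rich domains. Only 39 reached 20 kb. Pooled H3K79me1 peaks covered a median of 62.6% of a poor domain and 78.4% of a rich one. Pooled H3K79me2 ranged from 0.818% to just under the limit, with a median of 13.9%, and no domain was free of it. The domains were selected on width, on pooled H3K79me1 and on pooled H3K79me2, so these values are a description only. The 3 narrowest domains measured 10020, 10009 and 10004 bp, and the 3 that just missed the width were 9998, 9992 and 9988 bp wide. At the limit on H3K79me2, the 3 highest values inside were 19.98%, 19.98% and 19.996%, and the lowest outside were 20.05%, 20.1% and 20.1%.

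The domains were assembled from many short, weak peaks. A typical domain held a median of 9 peaks in control 1, 9 in control 2, 4 in Cre 1 and 0 in Cre 2. Median peak width inside them was 542 and 246 bp in the controls and 279 and 104 bp in Cre 1 and 2. The authors' median fold enrichment, a ratio of the library to its background, was 1.73 and 1.89 in the controls and 1.70 and 1.90 in the Cre lists. Of 5391, 4913, 2629 and 108 H3K79me1 peaks inside the domains, in the same order of lists, 0 had an authors' q-value under 0.05. The rich domains were little different in this respect, with 0, 1, 0 and 1 such peaks. In control 1 the authors' median −log10 p was 1.16 in poor and 1.44 in rich domains, whereas in control 2 it was 1.63 in both.

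The widest domain shows this makeup. It lay on chromosome 13 at 100226503 to 100276222 and spanned 49720 bp. H3K79me1 peaks covered 61.2% of it in control 1, 21.6% in control 2, 25.3% in Cre 1 and 0.324% in Cre 2. H3K79me2 peaks covered 0.977% and 7.99% in the controls and 8.46% and 6.98% in the Cre lists. Thus control 1 was the fullest H3K79me1 list, control 2 and Cre 1 lay close together, and Cre 2 was nearly empty.

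**Figure D1:**
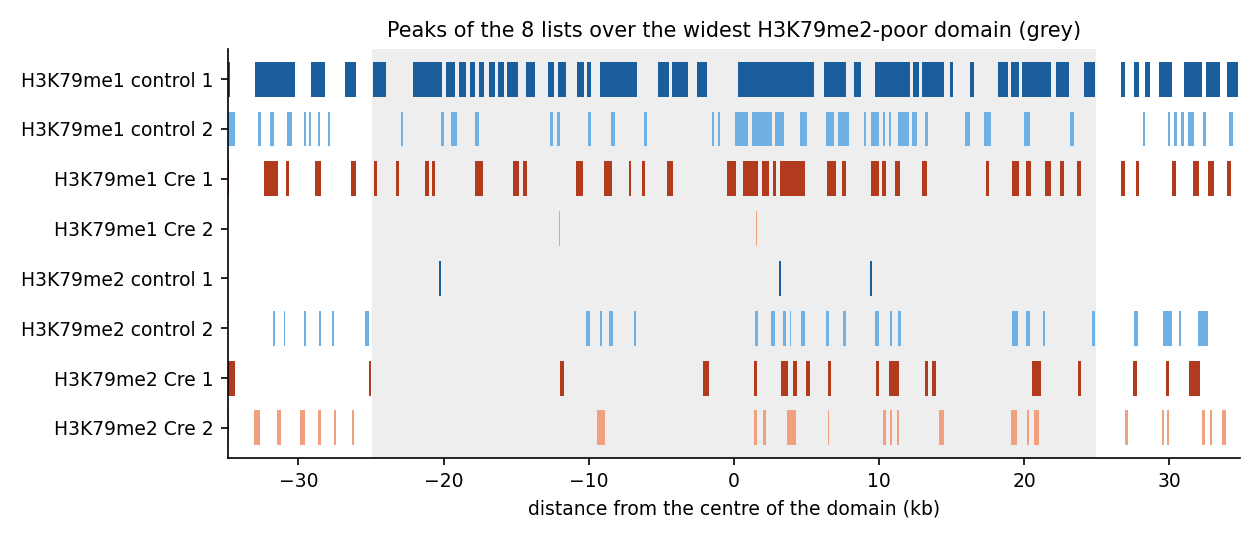
Peaks of the 8 lists over the widest H3K79me2-poor domain, drawn by distance from its centre in kb, with the domain in grey and each bar 1 peak. The H3K79me1 control 1 row is the fullest, at 61.2% of the domain, and the H3K79me1 Cre 2 row holds 0.324%.

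Most domains held peaks of 3 or 4 of the H3K79me1 lists. Peaks of all 4 H3K79me1 lists were present in 87 domains, of 3 lists in 423 and of 2 lists in 15. Control 1 had a peak in all 525, control 2 in 523, Cre 1 in 511 and Cre 2 in 88. In rich domains Cre 2 had a peak in 65.5%, compared with 16.8% of poor ones.

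The first comparison asked whether H3K79me1 over these domains differed between control and AF10-deleted cells. Of the summed length, H3K79me1 peaks covered 50.7% in control 1 and 20.7% in control 2, and 12.3% in Cre 1 and 0.204% in Cre 2. Both Cre libraries lay below both controls. Mean cover was 35.7 ± 21.2% for the controls and 6.23 ± 8.52% for Cre (SD, n = 2), a log2 difference of geometric means of -4.36. The exact two-sided permutation test gave p = 0.333, the smallest value that 6 arrangements of 2 against 2 allow, so the design cannot pass 0.05. Over the 9 comparisons of this kind, the Benjamini-Hochberg adjusted value was 1. Much of the size rested on Cre 2, which called little anywhere, and without it the log2 difference was -1.40. Without Cre 1 it was -7.31, and with equal peak numbers, the 12047 peaks of lowest p in each list, it was -1.77. The domains were built from these same 4 lists, so their H3K79me1 cover is not independent of how they were chosen. In the 30 domains rebuilt with no use of control 1, the log2 difference was -5.68. Those were still built from control 2 and both Cre lists, so this is no independent check.

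**Figure D2:**
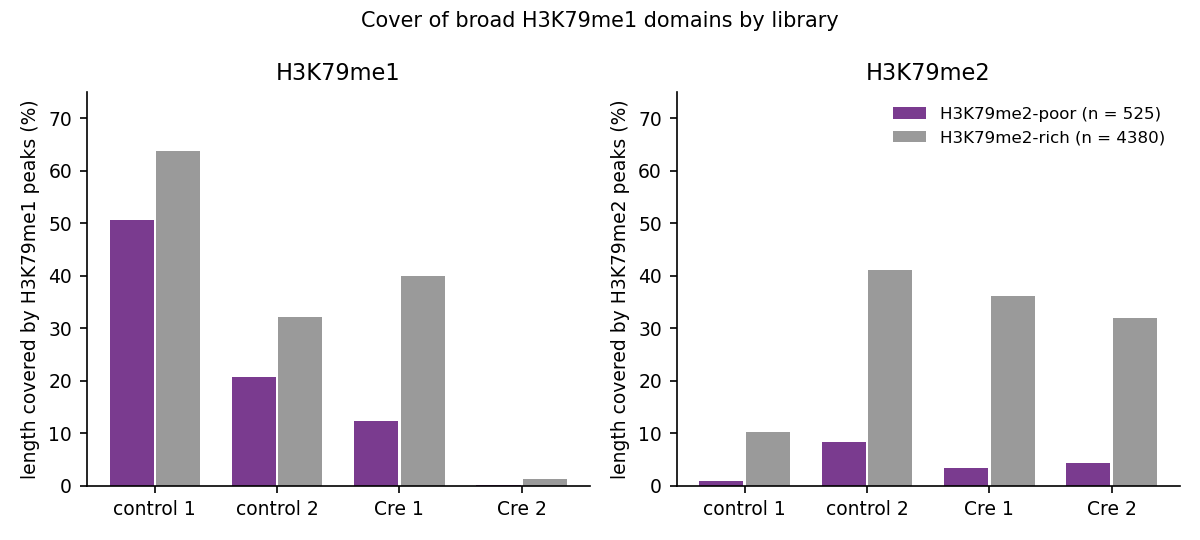
Share of summed length (%) covered by H3K79me1 (left) and H3K79me2 peaks (right) in each library, for 525 H3K79me2-poor and 4380 H3K79me2-rich domains, with each bar 1 library. H3K79me1 Cre 1 stands above control 2 in rich domains, at 39.95% against 32.2%, and below it in poor domains, at 12.3% against 20.7%.

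Cre 1 changed its rank between the 2 kinds of domain. In H3K79me2-rich domains H3K79me1 covered 63.8% and 32.2% of the length in controls 1 and 2, and 39.95% and 1.35% in Cre 1 and 2. There Cre 1 lay between the controls, and the exact permutation test gave p = 0.667 for a log2 difference of -2.63. Dividing the cover of the poor domains by that of the rich domains within each library scales it by how much that library called elsewhere. This ratio was 0.794 in control 1 and 0.643 in control 2, and 0.307 in Cre 1 and 0.151 in Cre 2. The means were 0.719 ± 0.107 and 0.229 ± 0.110 (SD, n = 2), so the gap was larger than the spread in either group. It corresponded to a ratio 3.32-fold lower after Cre (log2 difference -1.73, exact permutation p = 0.333, adjusted p = 1 over the 9 comparisons). Without Cre 2 the log2 difference was -1.22, and over the 4 libraries left out in turn it ran from -2.25 to -1.22. In the 30 domains rebuilt with no use of control 1 it was -3.35. Control 2 and both Cre lists still built those, so this is no independent check. Poor domains were 10.7% of broad domains with all lists, 1.05% without control 1, 5.27% without control 2 and 9.41% without Cre 1. Their choice thus leaned on the control lists more than that of broad domains did. A higher ratio in control is therefore partly built in.

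The order of the libraries in this ratio depended on the weakest peaks. With equal peak numbers, set by the shortest list, the ratio was 0.0886 in control 1, 0.472 in control 2, 0.0828 in Cre 1 and 0.151 in Cre 2. The groups then overlapped, and the 2 libraries numbered 1 lay side by side (log2 difference -0.87, exact permutation p = 0.667). With an authors' −log10 p of at least 2 the ratios were 0.0691 and 0.487 in control and 0.0554 and 0.142 after Cre, again with overlap. These ratios rest on little length. Peaks then covered 0.430% and 0.871% of the poor domains in control and 0.0242% and 0.132% after Cre. In both settings control 2 had the highest ratio.

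The difference by H3K79me2 was graded and did not begin at 20%. Across classes of pooled H3K79me2 cover, from under 10% (124 domains) to 80% and over (497 domains), H3K79me1 in Cre 1 went from 8.99% to 61.6% of the length. In control 1 it went from 47.4% to 63.5%, and in control 2 from 16.9% to 35.4%. The ratio of Cre 1 to control 1 therefore went from 0.190 to 0.971, and that of Cre 1 to control 2 from 0.533 to 1.74. Between the controls, the ratio of control 2 to control 1 also went up, from 0.356 to 0.558, over a smaller range. The classes share libraries, and the relation of H3K79me1 to H3K79me2 was known from these data when the domains were chosen.

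**Figure D3:**
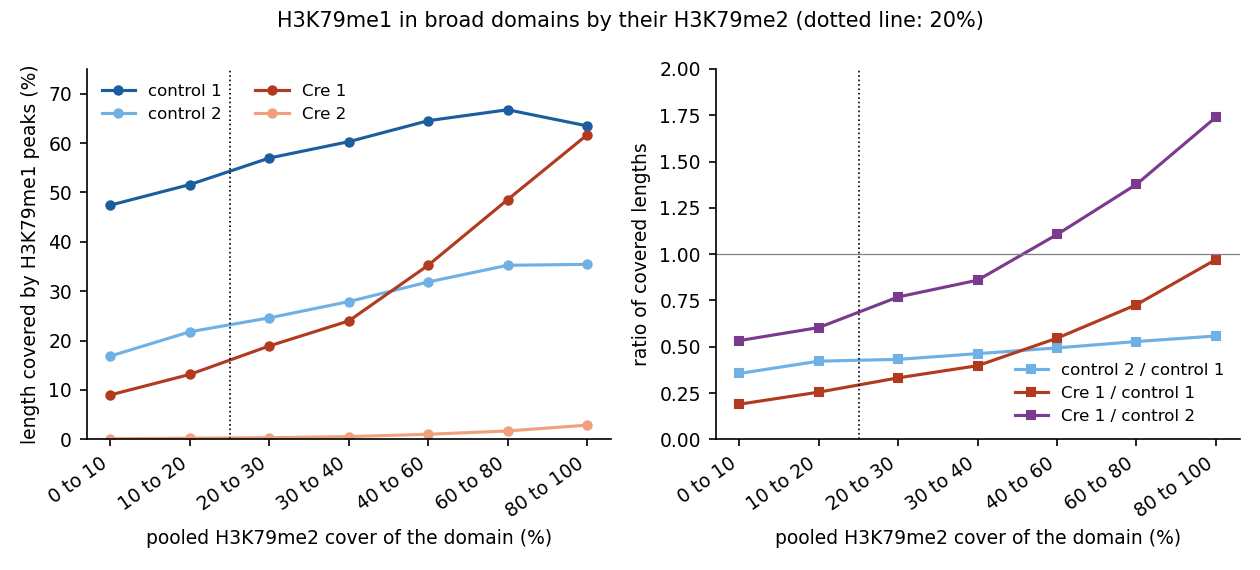
H3K79me1 cover (%) of broad domains in each library (left) and ratios of covered lengths between libraries (right), against the pooled H3K79me2 cover of the domain in 7 classes, with 124 to 1513 domains in a class. The Cre 1 to control 2 ratio crosses 1 between the 30 to 40% class, at 0.860, and the 40 to 60% class, at 1.11.

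Width and filling differed between the 2 kinds of domain, so the ratio was also taken within like domains, settings chosen after seeing the data. Among domains of 10 to 15 kb (382 poor and 1734 rich) it was 0.827 and 0.656 in control and 0.330 and 0.170 after Cre. Among those with 60 to 70% pooled H3K79me1 cover (218 poor and 696 rich) it was 1.06 and 0.784 in control and 0.580 and 0.239 after Cre. Against only the 1177 domains with 20 to 40% H3K79me2 the gap was smallest, with 0.861 and 0.782 in control and 0.561 and 0.447 after Cre (log2 difference -0.71). Both Cre libraries lay below both controls in each of these 3 settings. Within the poor domains, Cre 1 cover was 11.2% of the length at 10 to 12 kb and 15.2% at 20 kb and over.

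Domain by domain, both Cre libraries lay below both controls in H3K79me1 in 393 of the 525 poor domains (74.9%). The background was 42.5% of all 4905 broad domains. In rich domains the share was 38.7%, and 0 domains of either kind had both Cre libraries above both controls. Cre 1 was below control 2 in the same number of poor domains, 393 (background 42.7%), and below control 1 in all 525 (background 93.1%), so the count turns on Cre 1 and control 2. The share was 8.95% with equal peak numbers, with no background given for that setting. The lists then covered only 1.09% and 1.53% of the poor length in control and 0.700% and 0.204% after Cre. A domain without a peak in either control list cannot count there. The median difference between Cre and control means was -29.7 percentage points in poor domains and -28.7 in rich ones. All 525 poor domains were lower on average, and so were 4854 of all 4905 broad domains. The domains were built from these same peaks, with the control lists weighing most. Lower cover after Cre in these counts is therefore partly set by the choice of domains. Per-domain cover ranged from 21.4% to 76.0% in control 1 (median 50.9%) and from 0 to 51.8% in control 2 (median 20.2%). In Cre 1 it ranged from 0 to 43.0% (median 10.9%), and in Cre 2 from 0 to 4.14% (median 0).

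**Figure D4:**
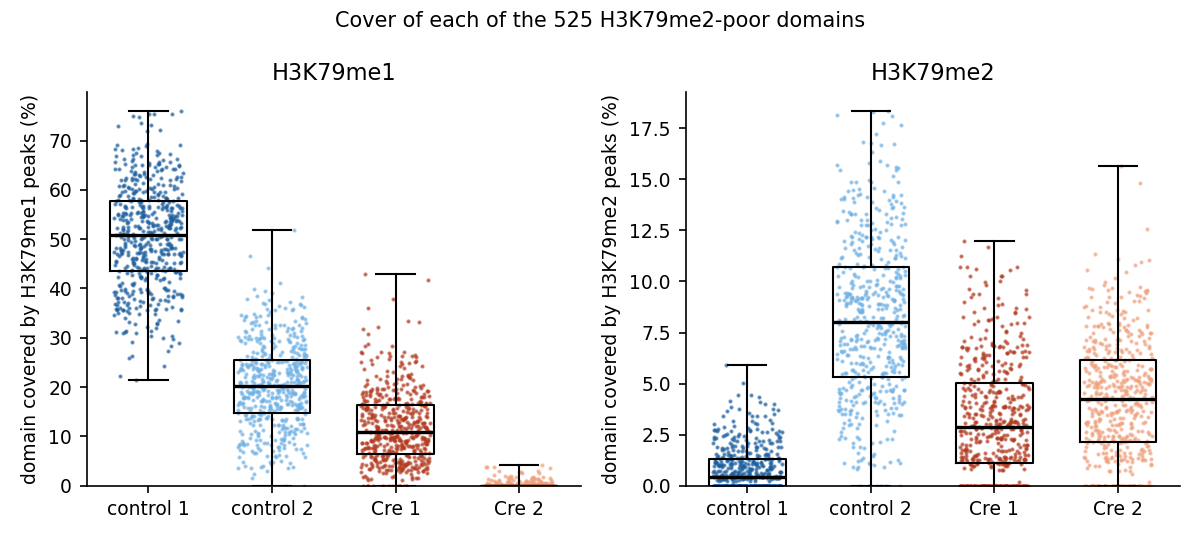
Cover (%) of each of the 525 H3K79me2-poor domains by H3K79me1 (left) and H3K79me2 peaks (right) in each library. Points are domains, boxes give the quartiles and the median, and whiskers reach the lowest and highest domain, with H3K79me1 medians of 50.9% and 20.2% in control and 10.9% and 0 after Cre.

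Fitted over all 4905 broad domains with limma and Benjamini-Hochberg adjustment, no poor domain passed an adjusted p of 0.05, and the background was 0% of all broad domains. At an unadjusted p under 0.05 there were 21 poor domains and 30 broad domains in all. The lowest adjusted p was 0.658. Without control 2 the same fit called 201 of the 525 lower (38.3%), against 5.71% of all broad domains, with the lone control assumed to vary like the Cre pair. With the replicate number as a block the call also changed, to 352 poor domains (67.0%), all lower. That block called 73.7% of all broad domains, 73.6% lower and 0.0815% higher, so the share among poor domains was below the background. The labels do not say that the numbers mark pairs.

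The domains with the largest H3K79me1 difference had dense control cover and little cover after Cre. On chromosome 11 at 30861636 to 30872289, a domain of 10654 bp was covered to 61.99% and 44.1% in the controls and to 9.85% and 0 in Cre 1 and 2. Its means were 53.1 ± 12.6% and 4.92 ± 6.96% (SD, n = 2), a difference of -48.1 percentage points. On chromosome 2 at 181345810 to 181357292 the cover was 67.4% and 38.2% in control and 9.87% and 0 after Cre, a difference of -47.9 points. Among the 5 largest differences, the smallest was -43.7 points, and Cre 2 covered 0 in 4 of the 5 domains. The domain on chromosome 6 at 47509346 to 47519810 combined a large difference with little H3K79me2. It had 62.03% and 29.9% H3K79me1 in control, 4.28% and 0 after Cre, and 5.63% pooled H3K79me2.

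Some domains kept H3K79me1 in Cre 1. The highest mean cover over the 4 lists, 31.3%, was on chromosome 10 at 60178031 to 60189539, where H3K79me1 covered 75.4% and 6.99% in control and 43.0% and 0 in Cre 1 and 2. Here control 1 and Cre 1 were high, and control 2 and Cre 2 low. In that domain H3K79me2 was higher in both Cre lists, at 11.98% and 15.7%, than in the controls, at 0 and 2.08%. On chromosome 11 at 65550860 to 65561422 the H3K79me1 cover was 55.3% and 30.2% in control and 37.9% and 0.473% after Cre, so Cre 1 lay between the controls. For the 5 widest domains, Cre 1 covered 11.4% to 25.3% and control 2 covered 21.6% to 34.7%, and Cre 1 exceeded control 2 only in the widest.

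H3K79me2 over the poor domains had no direction that held across settings. The little that was called covered 0.847% and 8.31% of the length in controls 1 and 2, and 3.40% and 4.37% in Cre 1 and 2. Neither Cre library was outside the range of the control pair (means 4.58 ± 5.28% and 3.88 ± 0.688%, SD, n = 2, log2 difference 0.54, exact permutation p = 1). Without control 1 the log2 difference became -1.11, and without control 2 it was 2.19. With equal peak numbers both Cre lists, at 3.40% and 3.11%, lay above the controls, at 0.723% and 2.89% (log2 difference 1.17, exact permutation p = 0.333). With an authors' −log10 p of at least 2 both Cre lists, at 0.0101% and 0.144%, lay below the controls, at 0.722% and 0.361% (log2 difference -3.74, exact permutation p = 0.333). Both Cre libraries lay below both controls in 22 poor domains (4.19%) and above them in 31 (5.90%), with backgrounds of 0.55% and 9.83% of broad domains. limma with Benjamini-Hochberg adjustment called 0 poor domains, with a background of 0%, and 0 at an unadjusted p under 0.05. Without control 1 it called 81 of them (15.4%), 80 lower, against 8.62% of broad domains. Without control 2 it called 18 (3.43%), all higher, against 73.9%, so the direction followed the control that was kept.

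The small H3K79me2 peaks inside the domains lay on H3K79me1. Of the H3K79me2 length in poor domains, 86.0% and 83.0% in controls 1 and 2 and 92.9% and 86.6% in Cre 1 and 2 lay inside pooled H3K79me1 peaks. Peaks placed without regard to each other within each domain would give 63.5% to 64.7%. Against the Cre H3K79me1 lists alone, the shares of the Cre H3K79me2 lists were 43.7% and 31.6%, compared with 14.8% and 13.8% for such placement. H3K79me2 after Cre thus lay on the remaining H3K79me1 more often than such placement gives.

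Each Cre list of H3K79me1 overlapped the control list of the same number furthest above independent placement. Of the Cre 1 length in poor domains, 73.3% lay inside control 1 peaks, against 52.7% for independent placement within each domain, and 24.5% inside control 2, against 20.3%. Of the Cre 2 length, 15.0 kb in all, 76.3% lay inside control 2, against 25.6%, and 58.4% inside control 1, against 49.4%. Control 1 covered 54.1% of control 2, where independent placement gives 50.0%, so the control lists shared little more of these domains than peaks placed apart would. Per the file headers, the peak names carry the letter A in H3K79me1 control 1 and Cre 1 and the number 19 in control 2 and Cre 2. What these stand for is not given in the sources used here, and their part in the results was not tested. Between the H3K79me2 controls the overlap was further above independence, with 47.8% of control 1 inside control 2 against 9.18%.

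H3K79me1 was spread evenly along the poor domains in 3 of the 4 lists. With each domain divided into 10 equal bins, cover in control 1 stayed between 48.4% and 52.6%, in control 2 between 18.4% and 22.2%, and in Cre 1 between 11.3% and 13.4%. The sparse Cre 2 list was uneven, from 0.0814% in bin 1 to 0.542% in bin 10, with 47.4% of its cover in the outermost 20% of length at each end. Rich domains were fuller in the middle, with 56.8% in bin 1, a highest value of 67.9% and 56.5% in bin 10 of control 1. A domain begins and ends with a peak by construction, and strand was not taken into account. Summed over both ends, the H3K79me2 inside poor domains was also near an even spread. Its share in the outermost 20% of length at each end, 40% in all, was 42.4% and 40.7% in the controls and 41.0% and 39.4% in the Cre lists, with the Cre 2 list just under an even spread. By bin, the sparse H3K79me2 control 1 list was uneven, from 0.677% in bin 7 to 1.26% in bin 10.

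**Figure D5:**
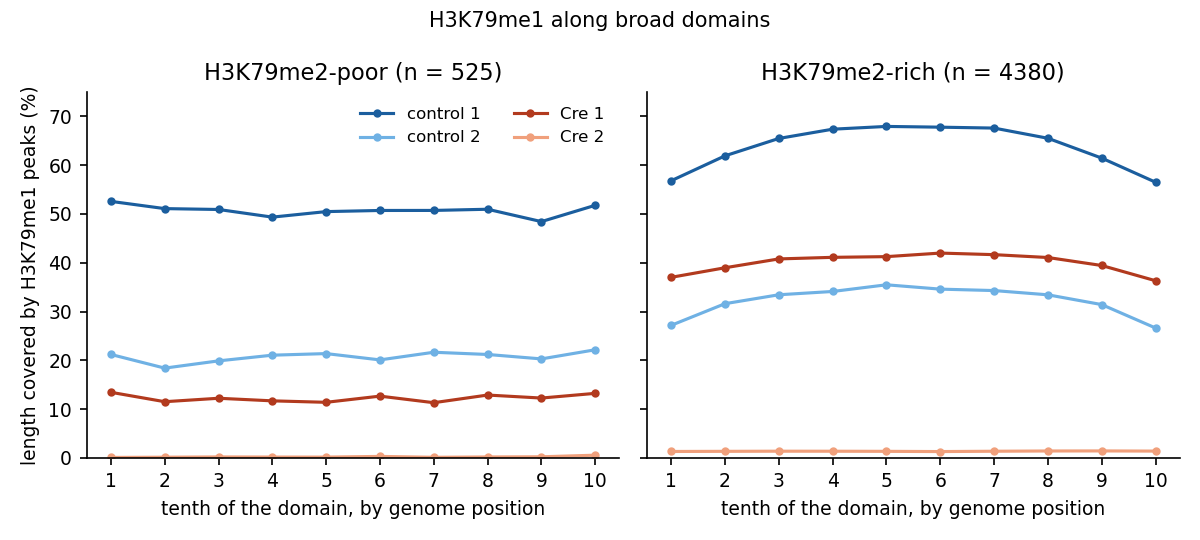
H3K79me1 cover (%) in 10 equal bins along the domain, in genome direction, for 525 H3K79me2-poor (left) and 4380 H3K79me2-rich domains (right), with each line 1 library. In control 1 the poor domains stay between 48.4% and 52.6%, whereas the rich domains go from 56.8% in bin 1 to a highest value of 67.9%.

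Outside other broad domains, the flanks of the poor domains held about as much H3K79me2 as the domains did. Flanks were cut at another broad domain for 224 poor (42.7%) and 1714 rich domains (39.1%). H3K79me2 in adjoining rich domains was thus not counted, and the rule keeps pooled H3K79me2 inside below 20%. Whether H3K79me2 edges the poor domains therefore cannot be read from these values. In the 10 kb on each side, up to the next broad domain, H3K79me2 covered 0.814% and 6.31% in control and 2.87% and 3.63% after Cre (log2 difference 0.51, exact permutation p = 1), near the values inside. That direction did not hold either, with -0.97 without control 1, 1.99 without control 2 and -1.75 at −log10 p of at least 2. In rich domains the cover dropped from 10.2% and 41.1% inside to 2.10% and 8.60% in the flanks of the controls, and from 36.1% and 32.0% to 6.05% and 6.06% in the Cre lists. H3K79me1 in the flanks of poor domains was 21.1%, 9.18%, 5.95% and 0.134% in control 1, control 2, Cre 1 and Cre 2. The log2 difference there was -3.96 (exact permutation p = 0.333), close to the -4.36 inside, so lower H3K79me1 cover after Cre was not particular to the domains. Those flanks lie outside the domains by the rule. Of the 525 domains, 140 (26.7%) had a flank with at least 20% pooled H3K79me2, against 1797 rich domains (41.0%). On chromosome 14 at 55283384 to 55295753, with the highest mean flank cover, H3K79me2 covered 22.8% of the flanks over the 4 lists. That domain itself held 16.4% pooled H3K79me2.

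The median gap from a poor domain to the nearest broad domain was 14.4 kb, against 23.1 kb for rich domains. Very close neighbours were about as frequent for both kinds, with one within 5 kb for 161 poor (30.7%) and 1367 rich domains (31.2%). In 111 of these 161 the close neighbours were all rich, in 42 all poor, and in 8 of each kind. The nearest broad domain was itself poor for 21.9% of poor and 8.65% of rich domains. Runs of poor domains no more than 50 kb apart numbered 57 and held 124 of them. The longest run held 4 domains over 99.7 kb on chromosome 6, from 33280724 to 33380409. In those 4 domains, H3K79me1 covered 32.9% to 52.2% in control 1, 22.96% to 35.6% in control 2, 5.87% to 17.8% in Cre 1 and 0 to 1.19% in Cre 2, so both Cre lists lay below both controls in each.

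All 19 autosomes held poor domains. Their share among broad domains ran from 7.56% on chromosome 16 (13 of 172) to 18.1% on chromosome 6 (50 of 276), with 16.5% on chromosome 18 and 15.1% on chromosome 1.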

How the data were processed

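ChIP-seq of H3K79me1 and H3K79me2 gave 8 libraries, grouped by their titles. Per the labels' protocols, chromatin was sheared to 200 to 400 bp and mixed with human 293T spike-in chromatin, and the lists record no scaling to it. MACS2, Bowtie2, HOMER, bedtools, deepTools and SAMtools 1.2 appear in the submitters' processing notes, with hg19 and mm9 as builds. Per the file headers, the authors called broad peaks per library against an input, with p settings of 0.001 (H3K79me1) and 1e-04 (H3K79me2) in the peak names. Most listed values fall short of these settings, and the lowest −log10 p was 1.00 to 1.03 in every list. Inside the poor domains, 1, 2, 0 and 1 H3K79me1 peaks of controls 1 and 2 and Cre 1 and 2 reached a −log10 p of 3. The reason was not tested. The deposited lists give, per peak, a fold enrichment (a ratio), a −log10 p-value, a −log10 q-value and a score, all the authors' own, used to describe and filter peaks within a list. A list shows where signal passed a threshold, not its level, and read depth is unknown.

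Cover was the percent of a domain's bases inside a library's peaks. Sums over domains were tested as log2 values by exact two-sided permutation, and single domains with limma 3.58.1 (moderated by a trend on the mean, Benjamini-Hochberg adjustment at 0.05 over all broad domains), tested on simulated data. Regions named were the 5 widest, the 5 with the highest mean H3K79me1, the 5 largest differences in each direction, the 3 widest without H3K79me2, the 3 with most flanking H3K79me2 and those at each limit, with the leading ones printed. No domain met the rules for a rise or for 0 H3K79me2. Runs of domains, likewise the chromosome 6 domain named for little H3K79me2, were chosen after their values were seen. The domains, tests and named regions were chosen with earlier results of these data known. Genes and sequences were not assigned, since the reference table used here is of another build (GRCm38.p6). Python 3.11.15, NumPy 2.4.6, Matplotlib 3.10.9 and R 4.3.3 were used. Alternatives covered the joining distance, width, H3K79me2 limit, peak strength, flanks, scale of the fit, leaving out each library, and a block for the replicate number.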

Additional observations from a re-analysis of the deposited data

How the results depend on the processing

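Of 115 alternatives, 99 were counted as unchanged. For limma, 14 fits of H3K79me1 and 13 of H3K79me2 were so counted because they again called 0 poor domains. The others kept the direction and call or moved by less than the spread. Relative cover with equal peak numbers is among these, although the groups overlapped there. H3K79me1 cover of the poor domains, alone and relative to rich domains, was lower after Cre in all 16 and 21 alternatives run. No exact permutation p was under 0.333, so none passed 0.05, and the direction is partly set by the choice of domains. The average over same-number pairs is among both sets of alternatives. It equals the unpaired difference by construction, so it is no check. The share of domains with both Cre libraries below both controls fell when few peaks were kept, with no background given there. It was 8.95% with equal peak numbers and 2.48% at −log10 p of at least 2. At that cutoff H3K79me2 changed direction, with log2 differences of -3.74 in the domains and -1.75 in the flanks. With each library left out these ran from -1.11 to 2.19 and from -0.97 to 1.99, negative without control 1. The share of H3K79me2 in the outermost 20% at each end, 40.9% on average, was 44.5% with joining within 2 kb, 46.2% at 20 kb and wider, 37.5% below 10% H3K79me2, 42.6% below 30%, 53.2% at −log10 p of at least 2 and 37.4% in domains rebuilt without H3K79me1 control 1. With each library left out, limma called 0 to 201 poor domains for H3K79me1 and 0 to 81 for H3K79me2. The cause of these changes was not tested.

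With the replicate number as a block, limma called 352 of the 525 poor domains for H3K79me1 and 0 for H3K79me2. Differences of same-number pairs averaged -4.36 for H3K79me1 (-2.05 and -6.67), -1.73 for the relative cover (-1.37 and -2.09) and 0.54 for H3K79me2 (2.00 and -0.93), the last with opposite signs. These averages equal the unpaired differences by construction, so only the values of the single pairs add information. Deviations of same-number libraries correlated across broad domains, which are not independent, at 0.202 for H3K79me1 and -0.374 for H3K79me2. Within the poor domains the values were 0.297 and -0.00703. A fit of H3K79me2 in domains with at least 10% mean cover held no poor domain and gave no value.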

Other observations

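Single H3K79me2 peaks with a low authors' q-value occurred inside otherwise poor domains. The authors' q-value was under 0.05 for 17 H3K79me2 peaks in 15 poor domains, 15 of the peaks from control 1 alone, and they were 52 to 338 bp wide. Such peaks were 2.79% of the H3K79me2 control 1 peaks in poor domains and 0.576% of those in rich domains. In 1 domain, on chromosome 3 at 68405869 to 68423531, a peak passed in 3 of the 4 lists at nearly the same place. It spanned 68409290 to 68409365 in control 1 with an authors' fold enrichment of 6.53, 68409301 to 68409431 in control 2 with 6.07, and 68409305 to 68409510 in Cre 2 with 5.00 (mm9). The domain as a whole held 18.9% pooled H3K79me2, and H3K79me1 covered 56.4% and 25.4% of it in control and 17.5% and 0.340% after Cre. These peaks were chosen after their values were seen.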
